A study of Mus musculus with 8 samples.

Results

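Endothelial and vascular adhesion genes were followed in orthotopic HCA-1 liver tumors of mice given saline or PFSUV-IMQ. The 34 genes were taken by symbol and comprised 26 genes of vessel endothelium in general, 3 genes typical of liver sinusoids (Stab1, Stab2 and Lyve1) and 5 genes of leukocyte adhesion (Icam1, Icam2, Vcam1, Sele and Selp). All 34 were found among the 55536 genes counted, and all 34 passed the filter on low counts that left 15998 genes for testing. HCA-1 is a mouse hepatocellular carcinoma line, which had been injected below the liver capsule of male C3H mice aged 6 to 8 weeks according to the labels. PFSUV-IMQ is imiquimod (IMQ), a small-molecule agonist of the RNA sensor TLR7, carried in phospholipid-free small unilamellar vesicles. On day 17 after implantation 4 mice received PFSUV-IMQ intravenously at 4 mg per kg and 4 mice received saline, and whole tumors were taken 3 h later. The labels number the treated tumors 1, 2, 3 and 4 and the saline tumors 1, 3, 4 and 5, and these numbers name them here. Every tumor grew from the same cell line, so the endothelium measured is that of the host liver and its new vessels, mixed with the RNA of all other cells of the tumor.

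Endothelial cells line blood vessels and are held together by junction proteins such as VE-cadherin. Their survival and sprouting are governed by VEGF receptors and by the angiopoietin receptor, and their identity by transcription factors of the ETS and SOX families. Liver sinusoids have an endothelium of their own that takes up waste from the blood through scavenger receptors such as stabilin-2. On inflammatory signals such as TNF, endothelium displays selectins, on which leukocytes roll, and then ICAM-1 and VCAM-1, to which leukocyte integrins bind for firm arrest. E-selectin is made anew by gene transcription, whereas P-selectin is also stored in granules of endothelium and platelets. ICAM-1 and VCAM-1 are not restricted to endothelium and can be carried by macrophages, stromal cells and tumor cells too.

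Library totals were 16883911 to 27687756 counts for saline and 17008151 to 18527613 for PFSUV-IMQ, at which 3 counts equal 0.108 to 0.178 CPM. The CPM used here are counts scaled to library size after TMM normalization, and ± marks the SD over 4 tumors. The lowest count of any of the 34 genes in a tumor was 8, for Sele, and the highest was 5149, for Vcam1. Of all genes tested, 394 (2.46%) were called higher and 35 (0.219%) lower (2.68% in either direction) after PFSUV-IMQ by edgeR's quasi-likelihood test at an adjusted p under 0.05. The labels do not name a sequencing batch. Libraries differed within groups, and 2 stood apart: the 12 hepatocyte markers summed to 40998 CPM in saline tumor 4 and to 49464 CPM in PFSUV-IMQ tumor 2, against 5247 to 16743 CPM in the other 6 tumors.

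The promoters of the selectins, Icam1 and Clec14a are shown because these are the adhesion genes and the 1 called gene with a window in the RefSeq promoter table. That table (mouse build GRCm38.p6) holds 21 promoter windows for 17 of the 34 genes, each from 250 bases before to 50 bases after a transcript start, and none for Vcam1. Capitals mark matches on either strand to the AP-1 motif TGANTCA, the GAS motif TTCNNNGAA, the ETS motif AGGAAGT or a κB core, GGANNTTCC. The Sele window is chr1:164047984-164048283 on the plus strand, the Icam1 window chr9:21015690-21015989 on the plus strand, the Selp window chr1:164115014-164115313 on the plus strand and the Clec14a window chr12:58269209-58269508 on the minus strand, each printed 5′ to 3′ along its gene.
Sele promoter: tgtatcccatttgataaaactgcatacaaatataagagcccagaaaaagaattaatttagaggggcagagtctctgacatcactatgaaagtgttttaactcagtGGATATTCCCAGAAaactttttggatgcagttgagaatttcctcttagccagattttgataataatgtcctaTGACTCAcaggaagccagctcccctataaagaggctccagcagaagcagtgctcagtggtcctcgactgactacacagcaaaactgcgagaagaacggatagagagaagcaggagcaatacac
Icam1 promoter: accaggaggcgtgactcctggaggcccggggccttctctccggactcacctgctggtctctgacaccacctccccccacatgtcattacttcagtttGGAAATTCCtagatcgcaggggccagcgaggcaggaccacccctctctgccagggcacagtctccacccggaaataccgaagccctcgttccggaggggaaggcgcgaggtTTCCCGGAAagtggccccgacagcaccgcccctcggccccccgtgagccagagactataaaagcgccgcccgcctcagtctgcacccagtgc
Selp promoter: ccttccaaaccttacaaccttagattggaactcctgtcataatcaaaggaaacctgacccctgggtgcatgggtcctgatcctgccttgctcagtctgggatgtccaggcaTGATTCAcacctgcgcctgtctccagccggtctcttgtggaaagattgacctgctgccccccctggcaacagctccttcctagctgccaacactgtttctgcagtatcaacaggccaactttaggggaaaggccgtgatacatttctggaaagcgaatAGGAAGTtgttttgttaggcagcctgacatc
Clec14a promoter: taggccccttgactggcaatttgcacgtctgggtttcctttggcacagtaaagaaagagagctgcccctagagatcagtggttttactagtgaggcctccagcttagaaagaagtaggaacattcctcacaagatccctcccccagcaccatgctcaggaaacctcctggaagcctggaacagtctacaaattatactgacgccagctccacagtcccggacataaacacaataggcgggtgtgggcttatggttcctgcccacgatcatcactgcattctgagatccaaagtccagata
In Sele, the κB core lay at -145 to -137 relative to the start and shared bases with the GAS match at -140 to -132, while an AP-1 match lay at -73 to -67. In Icam1, the κB core lay at -153 to -145 and the GAS match at -42 to -34. Selp held an AP-1 match at -139 to -133 and an ETS match at 20 to 26, and the Clec14a window held no match. The κB core was chosen after the sequences had been seen. It occurred in 4.26% of the 32851 windows of all genes and in 2 of the 21 member windows. The longer κB consensus, with fewer fixed bases, occurred in 8.46% of all windows and in 2 member windows, those of Flt1 and Kdr. GAS matches occurred in 8.3% of all windows and AP-1 matches in 7.81%, each in 2 of the 21 member windows. The ETS motif, the core that factors such as Erg bind, occurred in 9.35% of all windows and in 5 member windows, of Egfl7, Eng, Flt1 and Selp. An ISRE core, written as GAAA, 2 bases and GAAA again, occurred in 3.44% of all windows and in no member window.

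Most adhesion genes had higher and most vessel genes lower mean levels with PFSUV-IMQ, and 1 of the 34 differences passed the test. The median log2 fold change, PFSUV-IMQ minus saline, was 1.01 over the 5 adhesion genes, -0.15 over the 26 vessel genes and -0.58 over the 3 sinusoid genes, beside -0.03 over all genes tested. Of the adhesion genes 4 had a positive log2 fold change, of the vessel genes 6 and of the sinusoid genes 1. Negative values made up 54.0% of all genes. A log2 fold change above 1 was found for 3 of the 34 genes (Sele, Vcam1 and Icam1), beside 5.62% of all genes. At an adjusted p under 0.05, 1 of the 34 genes was called lower (Clec14a) and 0 were called higher, beside 0.219% and 2.46% of all genes. With a further limit of 1 on the size of the log2 fold change these counts were the same, beside 0.200% and 2.26%. At an unadjusted p under 0.05 with edgeR, 4 genes were higher (Icam1, Vcam1, Sele and Flt1), beside 8.34% of all genes. At this limit 3 were lower (Clec14a, Erg and Emcn), beside 4.65% of all genes. DESeq2's Wald test called Vcam1 and Sele higher and Clec14a lower, with 4.46% and 1.06% of all genes called. In bulk RNA, fewer cells of a type and less RNA per cell cannot be told apart, for Clec14a as for the other genes.

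**Figure D1:**
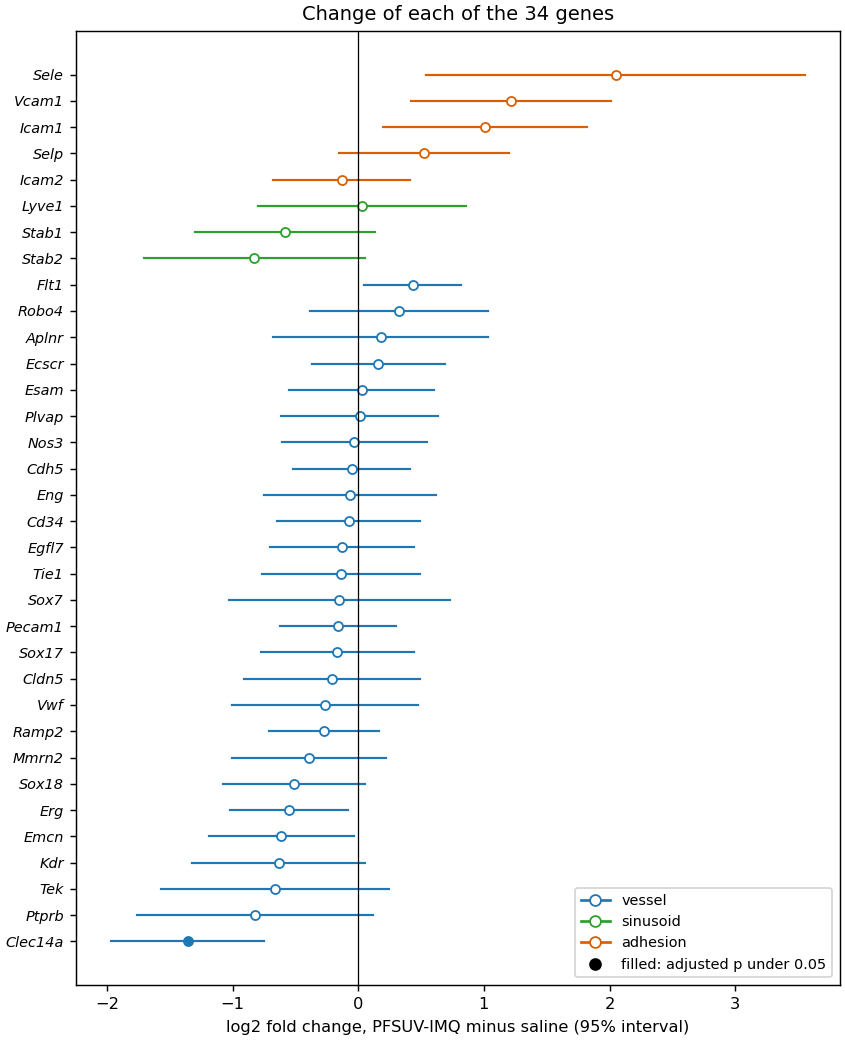
Log2 fold change, PFSUV-IMQ minus saline, of each of the 34 genes with its 95% interval from edgeR (4 tumors a group), colored by class; a filled point marks an adjusted p under 0.05. Sele, Vcam1 and Icam1 lie at 2.05, 1.22 and 1.01 with intervals above 0, and Clec14a, the one filled point, lies at -1.36.

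The adhesion genes are described first, in the order in which leukocytes meet them. Sele (chr1:164048234-164057677, plus strand, build GRCm38) encodes E-selectin and was the lowest of the 34 genes per length in saline tumors, at 0.187 CPM per kb of exon. Its level was 0.461, 0.386, 0.902 and 0.434 CPM in saline tumors 1, 3, 4 and 5, and 0.607, 5.38, 0.948 and 2.26 CPM in PFSUV-IMQ tumors 1, 2, 3 and 4. PFSUV-IMQ tumors 2 and 4 stood above the rest, tumor 1 lay within the saline range, and the groups overlapped. The mean was 0.546 ± 0.239 CPM with saline and 2.30 ± 2.17 CPM with PFSUV-IMQ (log2 fold change 2.05, SE 0.67, adjusted p 0.196 with edgeR and 0.0393 with DESeq2). Without PFSUV-IMQ tumor 2 the log2 fold change was 1.19. At such low levels counting error weighs more than for the other genes of the set.

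Selp (chr1:164115264-164150026, plus strand) lies next to Sele and encodes P-selectin. It was among the more abundant genes of the set per length, at rank 3 of 34 in saline tumors at 9.80 CPM per kb. Its level was 57.1, 54.6, 29.6 and 31.8 CPM with saline and 93.7, 49.8, 44.2 and 61.0 CPM with PFSUV-IMQ, in the same order of tumors. Saline tumors fell into a higher and a lower pair, and the 2 lower ones lay below all PFSUV-IMQ tumors. The difference did not pass the test (log2 fold change 0.52, SE 0.30, adjusted p 0.548). Platelets also carry P-selectin, and the 8 platelet and megakaryocyte markers summed to 38.0 to 56.2 CPM with saline and 45.4 to 78.7 CPM with PFSUV-IMQ, with Gp1bb at 0 in every tumor. Their part in the Selp values was not tested. Of the Selp exon bases, 14.1% overlap genes on the other strand, and whether counting used strand is not given in the sources used here.

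Vcam1 (chr3:116109949-116129688, minus strand) encodes VCAM-1, the ligand of integrin α4β1 on lymphocytes and monocytes. Its level was 85.0, 113, 84.2 and 57.4 CPM in the saline tumors and 135, 359.7, 132 and 163 CPM in the PFSUV-IMQ tumors. The lowest treated tumor exceeded the highest saline tumor, and Vcam1 was the 1 gene of the 34 that was higher without overlap, beside 6.00% of all genes. The mean was 85.0 ± 22.8 CPM with saline and 197 ± 109 CPM with PFSUV-IMQ. The fold of 2.32 (log2 fold change 1.22, SE 0.35) had an adjusted p of 0.138 with edgeR and 0.0244 with DESeq2. PFSUV-IMQ tumor 2 held the highest value, and without it the log2 fold change was 0.74. With the hepatocyte marker level of each tumor as a term in the edgeR fit, an alternative chosen after seeing the data, it was 0.93 with an adjusted p of 0.0285. With saline tumor 4 and PFSUV-IMQ tumor 2 both left out, it was 0.72 with an adjusted p of 0.296.

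Icam1 (chr9:21015985-21028817, plus strand) encodes ICAM-1, the ligand of the β2 integrins on neutrophils, monocytes and T cells. Saline tumors lay close together at 22.8, 21.8, 26.3 and 21.0 CPM, and PFSUV-IMQ tumors were spread over 40.5, 88.7, 25.4 and 30.2 CPM. PFSUV-IMQ tumor 3 fell below saline tumor 4, and the other 3 PFSUV-IMQ tumors lay above all saline tumors. The mean was 23.0 ± 2.32 CPM with saline and 46.2 ± 29.0 CPM with PFSUV-IMQ (log2 fold change 1.01, SE 0.36, adjusted p 0.255). Without PFSUV-IMQ tumor 2 the log2 fold change was 0.46. Of the Icam1 exon bases, 11.7% overlap Gm47079 on the other strand.

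Icam2 encodes ICAM-2, a β2 integrin ligand that resting endothelium carries, and showed no such difference. Its level was 5.12, 5.02, 6.10 and 6.62 CPM with saline and 6.95, 4.68, 5.30 and 3.91 CPM with PFSUV-IMQ. The highest and the lowest of the 8 tumors were both PFSUV-IMQ tumors. The log2 fold change was -0.13, with a 95% interval of -0.67 to 0.41 (adjusted p 0.898).

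**Figure D2:**
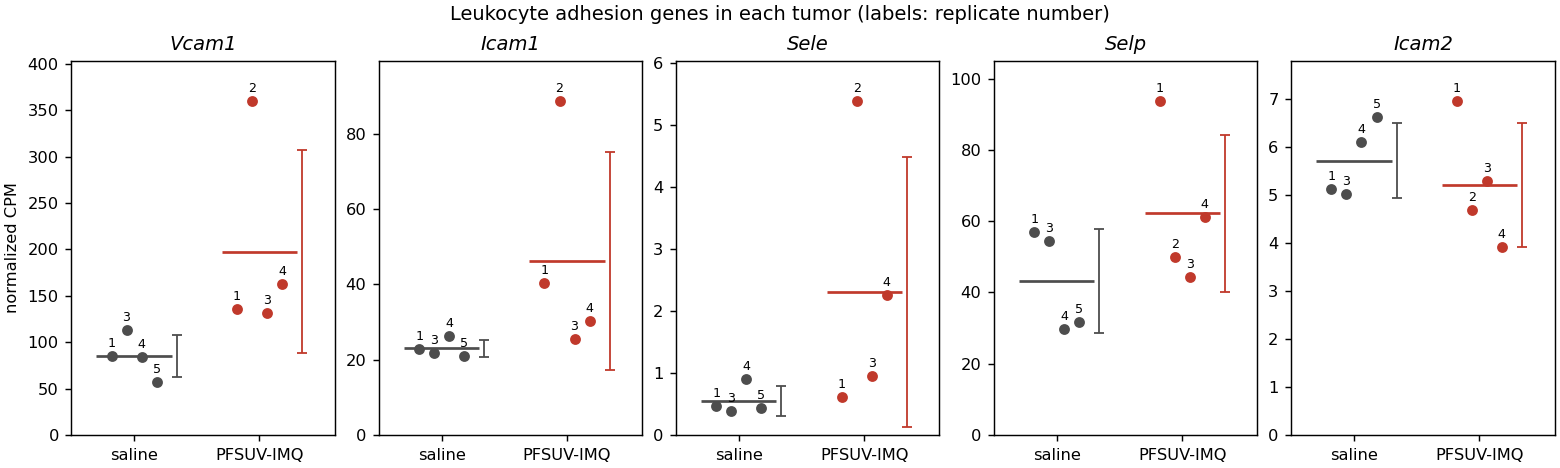
Normalized CPM of the 5 adhesion genes in each tumor, saline in gray and PFSUV-IMQ in red, each point with its replicate number; lines are means and bars at the side are ± SD (n = 4), and each panel has its own scale from 0. PFSUV-IMQ tumor 2 is highest for Vcam1 (359.7), Icam1 (88.7) and Sele (5.38), while Selp (93.7) and Icam2 (6.95) are highest in PFSUV-IMQ tumor 1.

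To set the adhesion genes against the amount of endothelial RNA in the same tumor, the mean log2 CPM of Pecam1 and Cdh5 was subtracted from the log2 CPM of each. Pecam1 encodes the junction protein CD31 and Cdh5 encodes VE-cadherin, and both mark endothelium in general. Pecam1 was 27.4, 32.8, 38.1 and 43.1 CPM with saline and 40.3, 33.3, 28.2 and 24.6 CPM with PFSUV-IMQ. Cdh5 was 33.0, 31.8, 44.6 and 43.1 CPM with saline and 47.2, 39.3, 26.8 and 33.9 CPM with PFSUV-IMQ. The groups overlapped for both genes, with log2 fold changes of -0.16 (95% interval -0.62 to 0.30) and -0.05 (95% interval -0.52 to 0.42).

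On this scale Icam1 differed by 0.94 between the groups, PFSUV-IMQ minus saline, and the groups were apart, at -0.11 to 1.29 with PFSUV-IMQ against -1.03 to -0.40 with saline. Its exact two-sided permutation p was 0.0286, the smallest that 4 tumors against 4 can give, and 0.143 after adjustment over the 5 genes. The difference was 1.24 for Vcam1 (exact permutation p 0.0571) and 1.62 for Sele (exact permutation p 0.0857), both 0.143 after adjustment. Selp differed by 0.64 (exact permutation p 0.229, adjusted 0.286) and Icam2 by -0.04 (exact permutation p 0.8286, before and after adjustment). After adjustment 0 of the 5 passed. ICAM-1 and VCAM-1 transcripts of cells other than endothelium also enter this measure. The 12 macrophage and Kupffer cell markers, of which 0 were at 0 in all tumors, summed to 1145 to 1633 CPM with saline and 930 to 1707 CPM with PFSUV-IMQ, and the 9 pericyte markers to 189 to 289 and 214 to 352 CPM. The leukocyte marker Ptprc was 63.5, 172, 51.4 and 75.2 CPM in PFSUV-IMQ tumors 1, 2, 3 and 4, and 39.6 to 100 CPM with saline. The leukocyte integrin gene Itgax, however, was lowest in PFSUV-IMQ tumor 2, at 27.5 CPM. The part of these other cells in the result was not tested.

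**Figure D3:**
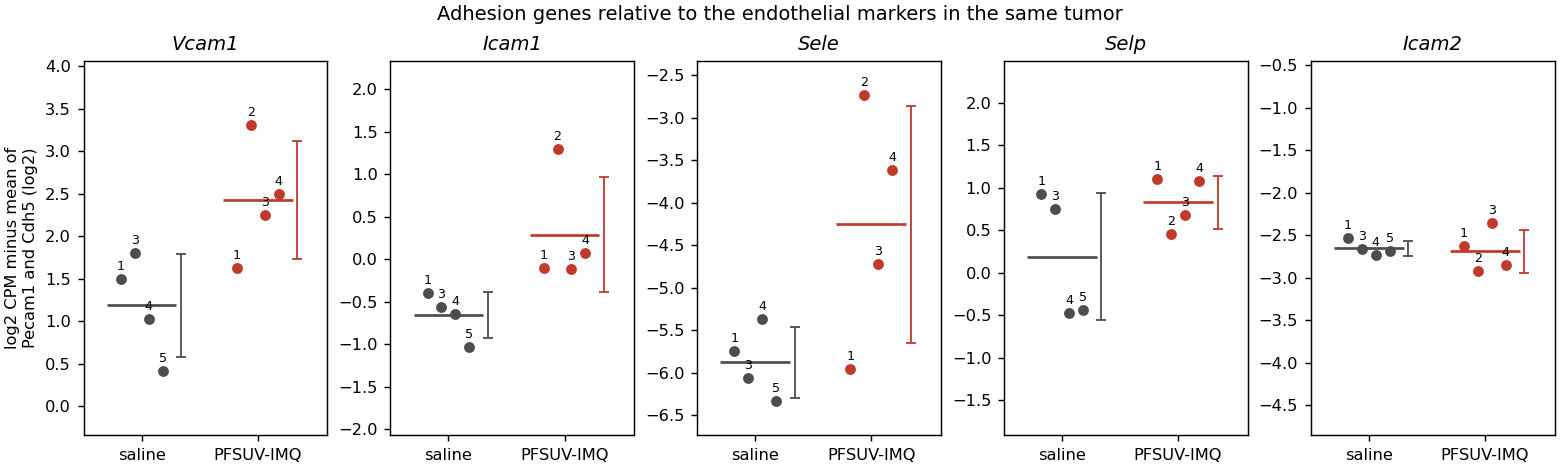
Log2 CPM of each adhesion gene minus the mean log2 CPM of Pecam1 and Cdh5 in the same tumor, with replicate numbers, group means and ± SD (n = 4); all panels span the same number of log2 units at different heights. The groups are apart for Icam1 (difference 0.94) and overlap for Vcam1 (1.24), Sele (1.62), Selp (0.64) and Icam2 (-0.04).

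Among the vessel genes, surface and junction proteins gave the single called gene. Clec14a (chr12:58264720-58269290, minus strand) encodes a C-type lectin of the endothelial surface with a role in sprouting. Its level was 7.10, 8.26, 13.1 and 6.68 CPM in the saline tumors and 3.09, 3.98, 3.68 and 2.98 CPM in the PFSUV-IMQ tumors. The groups were apart, the lowest saline tumor lying above the highest PFSUV-IMQ tumor. The mean fell from 8.78 ± 2.96 to 3.43 ± 0.479 CPM (log2 fold change -1.36, SE 0.27, adjusted p 0.0309 with edgeR and 2.95e-04 with DESeq2). In the fits that left out 1 tumor each, the log2 fold change ranged from -1.47 to -1.10 and the adjusted p from 0.0335 to 0.0978. The call held in 2 of these 8 fits, those without saline tumor 5 or PFSUV-IMQ tumor 2, and was lost without saline tumor 1 (adjusted p 0.0652), 3 (0.0853) or 4 (0.0617), or without PFSUV-IMQ tumor 1 (0.0744), 3 (0.0739) or 4 (0.0978). With the hepatocyte term the value was -1.43 with an adjusted p of 0.00153, and without saline tumor 4 and PFSUV-IMQ tumor 2 it was -1.20 with an adjusted p of 0.0434.

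Mmrn2, which encodes a matrix protein that binds CLEC14A, did not pass the test, at 12.4 ± 3.55 and 9.42 ± 2.51 CPM (log2 fold change -0.39, SE 0.27, adjusted p 0.644). The sialomucin gene Emcn was 14.9, 15.0, 15.2 and 21.6 CPM with saline and 14.7, 6.71, 10.0 and 12.2 CPM with PFSUV-IMQ. The groups did not overlap, although the lowest saline and the highest PFSUV-IMQ tumor differed little, and the test was not passed (log2 fold change -0.61, SE 0.26, adjusted p 0.347). Groups apart in this direction were found for 3 of the 26 vessel genes (Clec14a, Emcn and Erg), beside 3.28% of all genes. The junction genes Esam and Cldn5 had log2 fold changes of 0.03 and -0.21. Plvap, the protein of the diaphragms of fenestrated endothelium, was the most abundant of the 34 genes per length in saline tumors, at 22.7 ± 7.29 CPM per kb, and Eng was next at 13.5 ± 5.01. The 2 means differed by more than the SD of either gene. Plvap had the same mean in both groups within its error (45.1 ± 14.5 and 45.4 ± 14.5 CPM), with a 95% interval of its log2 fold change of -0.61 to 0.64. The sialomucin Cd34, the chemotaxis regulator Ecscr and the guidance receptor Robo4 had log2 fold changes of -0.08, 0.16 and 0.33, and none passed the test.

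Of the 8 receptor genes, 0 were called by edgeR or DESeq2 and 1 (Flt1) had an unadjusted p under 0.05, and their median log2 fold change was -0.20. The VEGF receptor genes took different directions. Flt1, which encodes VEGFR1, a high-affinity binder of VEGF-A, was 58.2, 66.5, 51.6 and 71.3 CPM with saline and 66.2, 99.0, 83.6 and 85.7 CPM with PFSUV-IMQ. PFSUV-IMQ tumors 2, 3 and 4 lay above all saline tumors, and tumor 1 lay within their range (log2 fold change 0.43, SE 0.17, adjusted p 0.316). Kdr, which encodes VEGFR2, the main signaling receptor, was 15.2, 17.7, 31.8 and 13.3 CPM with saline and 13.7, 16.8, 9.54 and 10.4 CPM with PFSUV-IMQ. Saline tumor 4 stood above the other 7 tumors, which overlapped (log2 fold change -0.63, SE 0.31, adjusted p 0.444). Without saline tumor 4 the log2 fold change of Kdr was -0.30.

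In the angiopoietin pathway, Tek encodes the receptor TIE2, Tie1 its partner and Ptprb the phosphatase VE-PTP that restrains TIE2. Ptprb was 15.6, 24.5, 41.8 and 9.45 CPM with saline and 10.1, 16.8, 15.3 and 9.48 CPM with PFSUV-IMQ. It was again highest in saline tumor 4 and the groups overlapped (log2 fold change -0.82, SE 0.42, adjusted p 0.476). Without that tumor the log2 fold change was -0.36. Tek was 4.62 ± 2.63 and 2.93 ± 0.562 CPM (log2 fold change -0.66, SE 0.40, adjusted p 0.580), and Tie1 was 10.8 ± 3.47 and 9.81 ± 2.42 CPM (-0.14, SE 0.28). The TGF-β family coreceptor gene Eng, the apelin receptor gene Aplnr and the adrenomedullin coreceptor gene Ramp2 had log2 fold changes of -0.06, 0.18 and -0.27, none of which passed. For Ramp2, 33.4% of exon bases overlap Vps25 on the same strand, so its counts are uncertain.

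The 4 transcription factor genes all had negative log2 fold changes, with a median of -0.34. By edgeR and DESeq2 0 were called, and 1 (Erg) had an unadjusted p under 0.05. Erg, which encodes an ETS factor that maintains endothelial identity, was 6.87, 7.77, 8.25 and 7.22 CPM with saline and 4.58, 6.08, 4.13 and 5.79 CPM with PFSUV-IMQ. The groups did not overlap (log2 fold change -0.55, SE 0.21, adjusted p 0.292). The SOX factor genes Sox18, Sox17 and Sox7 had log2 fold changes of -0.51 (SE 0.25), -0.17 (SE 0.27) and -0.15 (SE 0.39).

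The 4 genes of secreted and enzymatic products were likewise all negative, with a median of -0.20, and 0 were called by edgeR or DESeq2 or had an unadjusted p under 0.05. Vwf, the von Willebrand factor gene, was 4.19 ± 0.746 and 3.49 ± 1.58 CPM. The secreted angiogenic factor gene Egfl7 was 18.7 ± 6.87 and 17.1 ± 2.33 CPM, and the endothelial nitric oxide synthase gene Nos3 was 5.68 ± 0.995 and 5.56 ± 1.54 CPM. For Nos3, 32.3% of exon bases overlap Gm15587 and Atg9b on the other strand. For these 3 genes the group means differed by less than the SD of either group, and for Nos3 the 95% interval of the log2 fold change was -0.61 to 0.55.

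The 3 sinusoid genes were highest in the same 2 libraries, 1 of each group. Stab2, the hyaluronan scavenger receptor, was 17.6, 15.5, 38.1 and 14.6 CPM with saline and 10.8, 20.5, 8.64 and 8.66 CPM with PFSUV-IMQ. Stab1, a related scavenger receptor that macrophages also carry, was 65.5, 50.7, 145 and 97.2 CPM with saline and 68.3, 74.1, 53.0 and 44.5 CPM with PFSUV-IMQ. Lyve1, a hyaluronan receptor of sinusoids and lymphatics, was 14.2, 17.7, 26.4 and 16.0 CPM with saline and 8.99, 33.5, 17.1 and 16.5 CPM with PFSUV-IMQ. Saline tumor 4 and PFSUV-IMQ tumor 2 held the highest values of their groups for all 3 genes, and are also the tumors with the highest summed hepatocyte markers, and the part of the hepatocyte markers in the sinusoid values was not tested beyond the fit with a covariate given next. The groups overlapped for all 3 genes, and 0 passed the test with edgeR or DESeq2. With edgeR 0 had an unadjusted p under 0.05. With DESeq2 the unadjusted p of Stab2 was 0.0483 and its adjusted p 0.362. The log2 fold change was -0.83 (SE 0.39, adjusted p 0.428) for Stab2, -0.58 (SE 0.32, adjusted p 0.518) for Stab1 and 0.03 (SE 0.37, adjusted p 0.987) for Lyve1.

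With the hepatocyte marker level as a term, edgeR called 4.91% of all genes higher and 3.57% lower, and of the 34 genes 1 higher (Vcam1) and 3 lower (Clec14a, Stab2 and Ptprb). Stab2 then had a log2 fold change of -1.01 with an adjusted p of 0.0174, and Ptprb -0.88 with an adjusted p of 0.0307. Kdr was at -0.72 with an adjusted p of 0.0517, and Lyve1 at -0.25 with an adjusted p of 0.596. Without saline tumor 4 alone, the log2 fold change was -0.40 for Stab2 (adjusted p 0.759), -0.25 for Stab1 (adjusted p 0.822) and 0.24 for Lyve1 (adjusted p 0.879). With saline tumor 4 and PFSUV-IMQ tumor 2 both left out, Stab2 was at -0.79 with an adjusted p of 0.109 and Ptprb at -0.53 with an adjusted p of 0.694. Both alternatives were chosen after seeing the data. The hepatocyte markers were measured 3 h after the injection, so the term may also take up part of a treatment difference. Their median log2 fold change was 0.32, and 0 of the 12 were called.

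**Figure D4:**
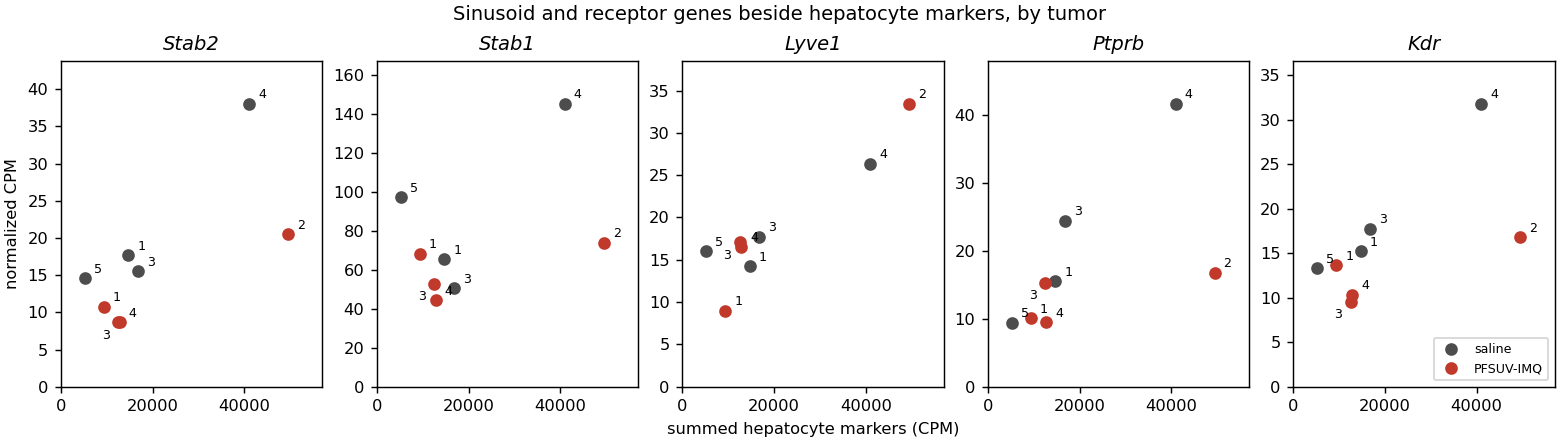
Normalized CPM of Stab2, Stab1, Lyve1, Ptprb and Kdr in each tumor against the summed CPM of 12 hepatocyte markers, with replicate numbers. Saline tumor 4 (40998 CPM of hepatocyte markers) is highest for Stab2 (38.1), Stab1 (145), Ptprb (41.8) and Kdr (31.8), and PFSUV-IMQ tumor 2 (49464) is highest for Lyve1 (33.5).

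The vessel genes as a class also varied between tumors of 1 group. Of the 26, each had its highest saline value in tumor 4 (13 genes) or tumor 5 (13 genes), and 15 had their lowest saline value in tumor 1. After PFSUV-IMQ, 12 were highest in tumor 1 and 11 in tumor 2, and 12 were lowest in tumor 4. The median of the 26 log2 levels, each relative to its saline mean, was 0.29 in saline tumor 5 and -0.26 in saline tumor 1, and 0.08 in PFSUV-IMQ tumor 1 and -0.32 in PFSUV-IMQ tumor 4. The range within either group exceeded the median log2 fold change of the class.

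**Figure D5:**
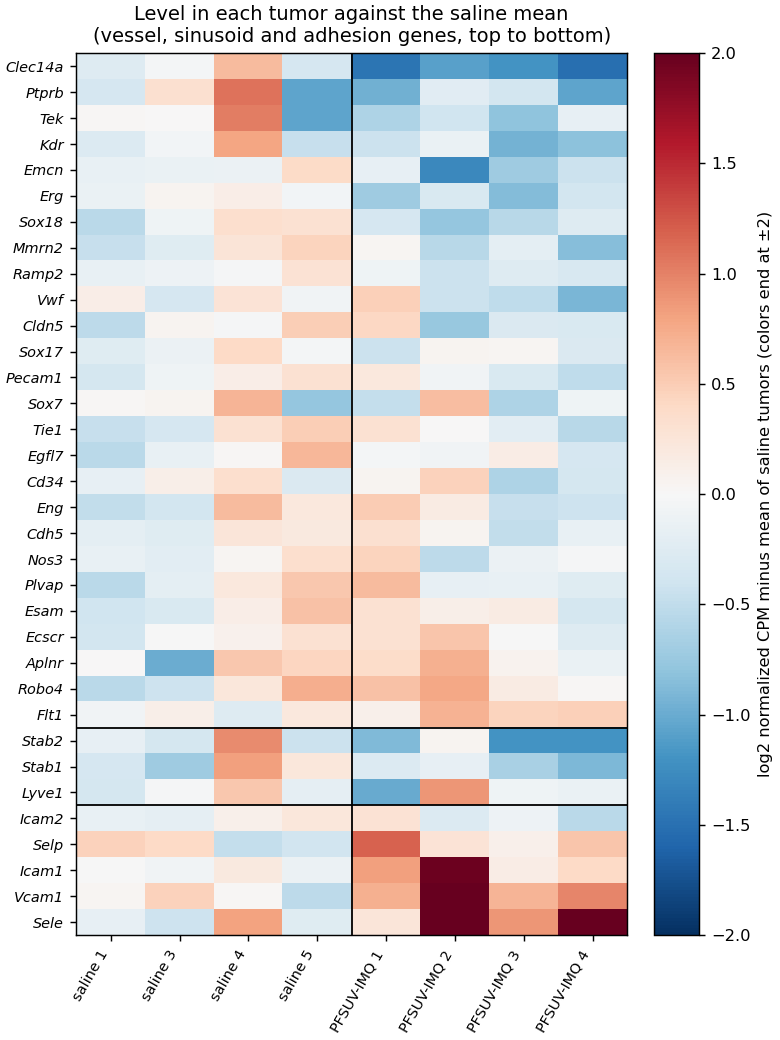
Log2 CPM of each gene minus its mean over the saline tumors, in every tumor, with blocks of vessel, sinusoid and adhesion genes from top to bottom and colors ending at ±2. Saline tumors 4 and 5 are reddest among vessel genes, Clec14a is blue in all 4 PFSUV-IMQ tumors, and Vcam1 is red in all 4.

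Genes of related pathways were read from lists in the same fit. Of 32 genes of the VEGF, angiopoietin and Notch pathways 30 were tested, and 1 was called higher and 0 lower, with a median log2 fold change of -0.04 and 4 genes higher at an unadjusted p under 0.05. The called gene was the Notch ligand gene Dll1, which rose from 6.26 ± 1.55 to 14.3 ± 3.19 CPM (log2 fold change 1.19, SE 0.25, adjusted p 0.0381). It was not called without saline tumor 1, 3 or 4 or without PFSUV-IMQ tumor 2, 3 or 4, where 0 genes of the list passed. Of 20 junction and transmigration genes 17 were tested, and 2 were called higher and 0 lower, with a median of 0.12. They were Cd47, the "do not eat me" signal that also takes part in transmigration (log2 fold change 1.02, adjusted p 0.0356), and F11r, which encodes the junction protein JAM-A (0.81, adjusted p 0.0373). Both are carried by many cell types besides endothelium, and with 1 tumor left out at a time both calls held only without PFSUV-IMQ tumor 1.

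Leukocyte ligands of the adhesion molecules included 14 tested genes, and 0 passed in either direction, with a median of 0.07. At an unadjusted p under 0.05 1 was higher, and DESeq2 called 1 higher. The integrin gene Itgb7 had an unadjusted p of 0.175 with edgeR and is not the gene counted as higher. It was at 39.5 ± 11.8 and 52.0 ± 15.4 CPM (log2 fold change 0.40, SE 0.27, adjusted p 0.635). Endothelial activation and coagulation genes numbered 32, of which 31 were tested, 24 had a positive log2 fold change and the median was 0.70. Of these 1 was called higher and 1 lower. Ednrb, the endothelin B receptor gene, fell from 16.6 ± 1.41 to 8.31 ± 1.03 CPM (log2 fold change -0.999, adjusted p 0.0153). The summed level of this list was 1251 to 1623 CPM with saline and 2262 to 3178 CPM with PFSUV-IMQ, without overlap. Neither call held without saline tumor 3 or without PFSUV-IMQ tumor 3 or 4, and 1 held without saline tumor 1. With no filter on low counts 4 genes of the list were called. At an unadjusted p under 0.05, 16 of the 31 were higher and 1 was lower, beside 8.34% and 4.65% of all genes. DESeq2 called 9 higher and 1 lower, beside 4.46% and 1.06%. Groups were apart for 12 higher and 1 lower, beside 6.00% and 3.28%.

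Other lists served to place the cell types. Of 16 further liver sinusoidal genes 14 were tested, and 0 passed in either direction, with a median of -0.34. At an unadjusted p under 0.05 1 was lower, and DESeq2 called 0. The smallest p values were those of Cd36 (log2 fold change -1.03, adjusted p 0.279) and Thbd (0.59, adjusted p 0.493), and the list summed to 478 to 740 CPM with saline and 525 to 717 CPM with PFSUV-IMQ. Bmp2 was the most abundant gene of this list, at 200 ± 92.4 and 240 ± 62.9 CPM. It was lowest in saline tumor 4, at 88.3 CPM, where Stab2 was highest, so the sum need not follow Stab2. The 6 lymphatic markers had a median of 0.32 and 0 calls (1 higher at an unadjusted p under 0.05, 0 with DESeq2), with Pdpn (0.62, adjusted p 0.225) and Flt4 (-0.26, adjusted p 0.785) smallest in p. The 9 pericyte markers had a median of -0.04 and 0 calls (1 higher and 2 lower at an unadjusted p under 0.05, 1 and 1 with DESeq2), with Myh11 (1.31, adjusted p 0.0724) and Abcc9 (-0.85, adjusted p 0.0814) smallest in p.

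Of the 12 macrophage and Kupffer cell markers 1 was called lower and 0 higher, with a median of -0.13. At an unadjusted p under 0.05 1 was higher and 2 were lower, and DESeq2 called 1 higher and 2 lower. The gene called by edgeR was Vsig4, a complement receptor of Kupffer cells, which fell from 17.3 ± 7.61 to 5.63 ± 2.103 CPM (log2 fold change -1.62, adjusted p 0.0453). Its call held only without saline tumor 1 or PFSUV-IMQ tumor 2 when 1 tumor was left out. The 5 tested platelet markers had a median of 0.06 and 0 calls (1 higher at an unadjusted p under 0.05 and with DESeq2), with Itgb3 (0.66, adjusted p 0.101) and Itga2b (0.22, adjusted p 0.834) smallest in p. The 12 hepatocyte markers had a median of 0.32 and 0 calls (0 at an unadjusted p under 0.05 or with DESeq2), led by Tat (1.69, SE 1.04, adjusted p 0.583) and Fgg (0.83, adjusted p 0.724). The 10 leukocyte and red cell markers had a median of -0.21 and 0 calls (4 lower at an unadjusted p under 0.05, 1 with DESeq2). Smallest in p were the globin genes Hbb-bs (-1.24, adjusted p 0.176) and Hbb-bt (-1.44, adjusted p 0.253), which share sequence and are uncertain. All 4 positive log2 fold changes were of leukocyte markers, Ptprc (0.29), Cd79a (0.81), S100a8 (0.98) and S100a9 (1.17). Cd3e, Ncr1 and all red cell markers were negative.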

How the data were processed

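RNA of 8 whole tumors was sequenced from KAPA mRNA HyperPrep libraries. The whole-number counts that the authors deposited for each gene were the input of every test. They also deposited a normalized table of signal values, which equals these counts divided by 1 size factor per tumor and was used here for gene symbols. The submitters' processing notes name Trimmomatic 0.38, HISAT2 2.1.0 and featureCounts 2.0.0, whereas the methods of the study name TopHat and HTSeq. The genome build is not given in the sources used here. All 55536 gene identifiers are in GENCODE M21 (GRCm38), from which coordinates and exon lengths were taken. CPM per kb were CPM divided by the length of a gene's merged exons.

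In edgeR 4.0.16 (R 4.3.3), counts were scaled by TMM, filtered with filterByExpr and tested by quasi-likelihood, and p-values were adjusted over 15998 genes by Benjamini and Hochberg's method. Calls are adjusted p-values under 0.05. Alternatives were DESeq2 1.42.0, its size factors, no filter, at least 10 counts in every tumor, a log2 fold limit of 1, a term for the replicate number and each tumor left out in turn. Log2 CPM for the adhesion ratios used a prior count of 2 (alternative 0.5), with the vessel gene median as another reference. Permutation tests used scipy 1.17.1 and tables pandas 2.3.3, in Python 3.11.15.

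The members, the lists and the settings were chosen with earlier results of these data known. All 34 members are named. Of each list, the called genes are named, or else the 2 with the smallest p. Some genes that this rule takes are not reported here. No label says that replicates are more than separate tumors of 1 group, and p-values measure the spread between them. Pairs of tumors of a group differed by more than sampling noise, with chi-square per degree of freedom of 29.5 to 287. Limits from 3 counts reflect counting error only.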

Additional observations from a re-analysis of the deposited data

Results flagged for a closer look

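In each group of 4 tumors the gap between the highest or lowest tumor and its nearest neighbor was divided by the range of the group, and 5 of 68 groups exceeded Dixon's critical value for 4 samples, where chance gives about 1 in 20. Vcam1 was 359.7 CPM in PFSUV-IMQ tumor 2, against 132 to 163 CPM in the other 3 PFSUV-IMQ tumors. Sele was 0.902 CPM in saline tumor 4, above 0.386 to 0.461 CPM in the other saline tumors. Stab2 was 38.1 CPM in saline tumor 4, above 14.6 to 17.6 CPM in the others. Emcn was 21.6 CPM in saline tumor 5, and its other saline tumors lay from 14.9 to 15.2 CPM. Plvap was 67.2 CPM in PFSUV-IMQ tumor 1, and its other PFSUV-IMQ tumors lay from 36.7 to 39.3 CPM.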

How the results depend on the processing

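The count of the 34 genes called higher stayed at 0, and that called lower at 1, with DESeq2's size factors, no filter, at least 10 counts in every tumor (which removed Sele), a log2 fold limit of 1 and the fit without saline tumor 4 and PFSUV-IMQ tumor 2. DESeq2's Wald test called 712 genes higher and 170 lower, with 2 of the 34 higher, and without the filter 64 genes were lower. The hepatocyte covariate gave 785 genes higher and 571 lower, with 1 and 3 of the 34. Over the fits without 1 tumor, 198 to 398 genes were higher and 8 to 41 lower, and of the 34 genes 0 were higher and 0 to 1 lower. The cause was not tested.

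The numbers 1, 3 and 4 are shared by the groups but belong to different animals. Same-numbered tumors had correlations of deviations of 0.29, -0.27 and -0.32. So few pairs cannot decide whether tumors of the same number share a batch, which the labels do not say. No saline tumor correlated best with its own number. With the replicate block, 519 genes were higher and 302 lower, and of the 34 genes 0 and 1. Saline tumor 5 and PFSUV-IMQ tumor 2 have no partner of the same number and do not enter the group difference in that fit, in which Sele was at 1.04, Vcam1 at 0.61 and Icam1 at 0.42. Log2 fold changes that turned sign with the block were Cldn5 (0.10), Tie1 (0.014), Egfl7 (0.15), Nos3 (0.21) and Lyve1 (-0.46).

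With the hepatocyte covariate Nos3 (0.034) and Lyve1 (-0.25) turned sign, and without saline tumor 4 and PFSUV-IMQ tumor 2 Eng (0.11), Nos3 (0.089) and Lyve1 (-0.20). With 1 tumor left out at a time the log2 fold change crossed 0 for Aplnr (-0.063 to 0.36), Cd34 (-0.31 to 0.077), Cdh5 (-0.20 to 0.074), Egfl7 (-0.28 to 0.14), Eng (-0.28 to 0.19), Esam (-0.10 to 0.25), Lyve1 (-0.40 to 0.26), Nos3 (-0.22 to 0.091), Plvap (-0.24 to 0.21), Sox7 (-0.48 to 0.11) and Tie1 (-0.29 to 0.043). The Icam2 ratio also crossed 0 (-0.15 to 0.040). Ratios of the other 4 adhesion genes kept their direction, but 3 tumors against 4 cannot give an exact permutation p below 0.0571. The vessel median as reference or a prior count of 0.5 changed no direction or call of a ratio. At the depth used here, Sele is the gene most limited by counting.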
